A study of Oryza sativa with 51 samples.

Results

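The genes described here are the rice genes with the largest daily swing among those that stand highest 9 h into the day cycle. For each gene, log2(FPKM + 0.5) was averaged over all lines and both days at each of 8 clock hours (Zeitgeber time, ZT, taken modulo the day length), where FPKM gives sequenced fragments relative to transcript length and to the total of the library. Members were chosen by these measured means. A gene was a candidate when its mean over all libraries was at least 5 FPKM, its highest clock-hour mean exceeded its lowest by at least 3 on the log2 scale, and the highest mean fell at hour 9. Of 34653 genes in the table, 1080 passed the level and range conditions at any hour and 239 of these were highest at hour 9. The 150 of them with the largest range are the members, and 149 of these carry a rice locus identifier. The last member, LOC_Os06g08580, had a range of 3.61 and the first gene outside, LOC_Os07g02460, one of 3.60. The choice therefore used the hour-by-hour means over lines and days, and the daily curve, its range and its peak are given below as a description without a test. Differences between lines and between days did not enter these means and were tested, with a limit. In 131 members the level and range conditions also held in each line on its own. The other 19 missed one of them in at least 1 line and passed through the others: SE21s and LY2186 each fell short for 9 members, MH86 for 6. For these 19 a difference between lines is not independent of the choice. Counts of calls between lines are therefore given for all 150 members and for the 131, and those of the 19 that are named are described without a test.

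All leaves were flag leaves, the leaves next to the panicle, of field-grown plants at the grain-filling stage. The lines were SE21s, which is male-sterile, the restorer line MH86, and LY2186, the hybrid of these parents, with 17 strand-specific RNA libraries per line covering ZT0 to ZT48 in steps of 3 h. The 3 lines grew in the same field environment, and no treatment is named. The labels give neither the light schedule nor whether libraries came from separate plants, so p-values rest on variation among the 51 libraries and that variation may be technical.

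The plant circadian clock is a loop of transcription factors that repress one another at successive times of day, as worked out mainly in Arabidopsis. Its afternoon and early evening genes include GIGANTEA, some of the pseudo-response regulators and the blue light receptor FKF1, which link the clock to day length and flowering. In leaves the clock and light together time the genes for light harvesting, chlorophyll synthesis and nitrogen assimilation to the light hours. Symbols below were assigned to locus identifiers from general knowledge of published rice genes, because the table holds identifiers without names. Other members are given by identifier alone. No sequences are shown, since the table holds identifiers and values alone.

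The leaf label was checked against marker genes. The median of the summed level of 13 antenna genes over the libraries of SE21s was 14412 FPKM, over those of LY2186 4093 and over those of MH86 995, and all 13 reached 1 FPKM in some library. The sum of 10 carbon fixation genes ran from 7641 to 69407 FPKM over all libraries. Its medians were 41361 (SE21s), 28712 (LY2186) and 13898 FPKM (MH86). The sum of 9 grain and floral organ markers ran from 27.3 to 88.7 FPKM, with medians of 40.8 (SE21s), 49.9 (LY2186) and 61.0 FPKM (MH86), and none of these 9 was at 0 in every library. In bulk leaves, fewer cells of a type and less RNA per cell cannot be told apart. FPKM sums per library ran from 824871 to 2467820 while the upper quartile over genes averaging 1 FPKM or more stayed between 24.8 and 32.2. No 2 libraries held identical values.

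The members range from weakly to very strongly expressed genes. Their mean level over all libraries ran from 5.10 to 5892 FPKM, with a median of 26.2 FPKM. The clock-hour range ran from 12.2-fold to 2276-fold, with a median of 28.8-fold on the FPKM + 0.5 scale, which understates the swing of genes that fall near 0. In 22 members it reached 100-fold. Together the members held a median of 5.61% of the FPKM sum of a library at hour 9, 3.32% at hour 12, 2.44% at hour 6 and 0.272% at hour 0.

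The members differed in the width of their peaks and in the flank that stayed high. The hour with the next highest mean was hour 12 in 84 members and hour 6 in 64, and hours 0 and 15 took 1 member each. The lowest mean fell at hour 0 in 97 members and at hour 3 in 31, and the other 22 were lowest between hours 15 and 21. From hour 6 to hour 9 the median member gained 0.84 on the log2 scale (0.014 to 6.08), and from hour 9 to hour 12 it dropped by 0.60 (0.005 to 4.12). At least a 4-fold gain before the peak was seen in 24 members and at least a 4-fold drop after it in 11, and 0 members had both. In 58 members 3 clock hours stood at 0.5 or more of the highest mean, in 63 there were 2 such hours, in 17 there were 4, and in 12 the peak hour stood alone.

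The peak held in most single lines and days. The highest clock-hour mean lay at hour 9 for 134 members in SE21s, for 128 in LY2186, for 138 in MH86 and for 109 in all 3 lines. For 76 members the top library lay at hour 9 in each of the 6 combinations of line and day. In 19 members each of the 6 hour 9 libraries exceeded every library of another hour. The median range on the log2 scale was 4.85 in SE21s, 5.05 in LY2186 and 4.75 in MH86.

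**Figure D1:**
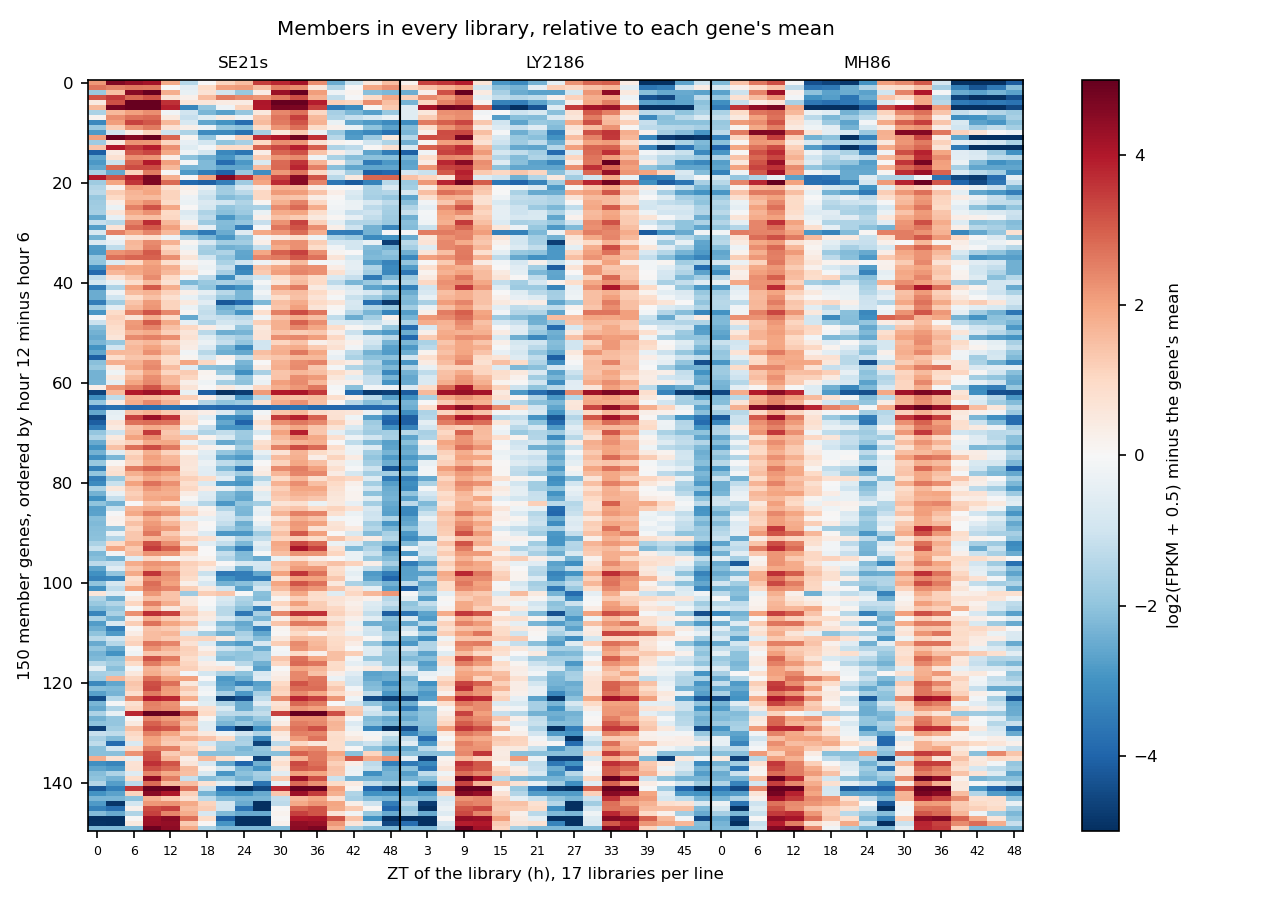
Each row is 1 of the 150 members and each column 1 library (17 per line, labelled by ZT in h), coloured by log2(FPKM + 0.5) minus the mean of the gene over all 51 libraries. Rows are ordered by hour 12 minus hour 6, so the 65 members with hour 6 above hour 12 stand at the top and the 85 with hour 12 above hour 6 below them. High values recur around ZT9 and ZT33 in each line.

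Of 223 genes in 22 functional lists, 220 were in the table and 14 are members. The clock list gave 4 of 13 genes, the antenna list 6 of 13 and the chlorophyll synthesis, nitrogen, antioxidant and thiamine lists 1 each. The other 16 lists, among them starch, sucrose, heat shock, flowering, photoreceptor, hormone, aquaporin, phosphate and carbon fixation genes, gave 0 members. These counts describe the choice and carry no test.

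The clock members were GI, PRR95, FKF1 and PRR1/TOC1. PRR59, a further pseudo-response regulator gene, was also highest at hour 9 but its range of 2.38 kept it out. PRR37 and PRR73 of the same family were highest at hour 6, with ranges of 8.22 and 8.89. GI (LOC_Os01g08700) encodes GIGANTEA, which in Arabidopsis works with FKF1 to time the photoperiodic flowering pathway. At ZT9 and ZT33 it stood at 489 and 442 FPKM in SE21s, 527 and 682 in LY2186 and 585 and 678 in MH86. At ZT0, ZT21, ZT24, ZT45 and ZT48 all 15 of its values lay between 0.267 and 1.39 FPKM. GI thus spanned a 513-fold range, the fifth largest, and stayed high from hour 6 to hour 12 with means of 443, 567 and 429 FPKM. At hour 9 the SE21s values lay below those of the other lines, but SE21s minus MH86 was -0.44 ± 0.27 (log2, SE). By limma with Benjamini-Hochberg adjustment this difference was not called (adjusted p = 0.275). Here and below, the SE rests on the spread of a gene pooled over all hours, not on the hour 9 libraries alone.

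PRR95 (LOC_Os09g36220) encodes a pseudo-response regulator, a class of repressors of morning clock genes in Arabidopsis. It had the narrowest peak of the clock members, with means of 171 FPKM at hour 6, 354 at hour 9 and 86.1 at hour 12. Its hour 9 libraries read 325 and 299 FPKM in SE21s, 355 and 356 in LY2186 and 402 and 387 in MH86. The lines did not overlap at hour 9, with SE21s lowest and MH86 highest. SE21s minus MH86 was -0.34 ± 0.25, an SE that also holds the spread at other hours, and was not called by limma (adjusted p = 0.354).

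FKF1 (LOC_Os11g34460) encodes an F-box blue light receptor of the flowering pathway. It rose late, from a mean of 8.80 FPKM at hour 6 to 97.9 at hour 9, and held 71.0 FPKM at hour 12. Single values at hour 9 were 94.8 and 79.0 FPKM in SE21s, 97.0 and 94.2 in LY2186 and 113 and 109 in MH86. At hours 21 and 0 none of the 15 libraries exceeded 0.134 FPKM, and 1 SE21s library is listed at 0. The parental difference at hour 9 was -0.36 ± 0.32 and not called by limma (adjusted p = 0.464).

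PRR1/TOC1 (LOC_Os02g40510), an evening member of the same regulator family, had the smallest swing of the 4 at 33-fold. At ZT9 and ZT33 it read 88.1 and 74.7 FPKM in SE21s, 81.8 and 93.5 in LY2186 and 90.0 and 92.5 in MH86, so the lines overlapped. It declined slowly, with means of 65.2 FPKM at hour 12, 29.6 at hour 15, 17.8 at hour 18 and 9.52 at hour 21. At ZT21 and ZT45 SE21s held 4.08 and 5.59 FPKM, against 10.4 and 10.8 in LY2186 and 14.2 and 12.1 in MH86. There the lines did not overlap and SE21s was lowest.

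**Figure D2:**
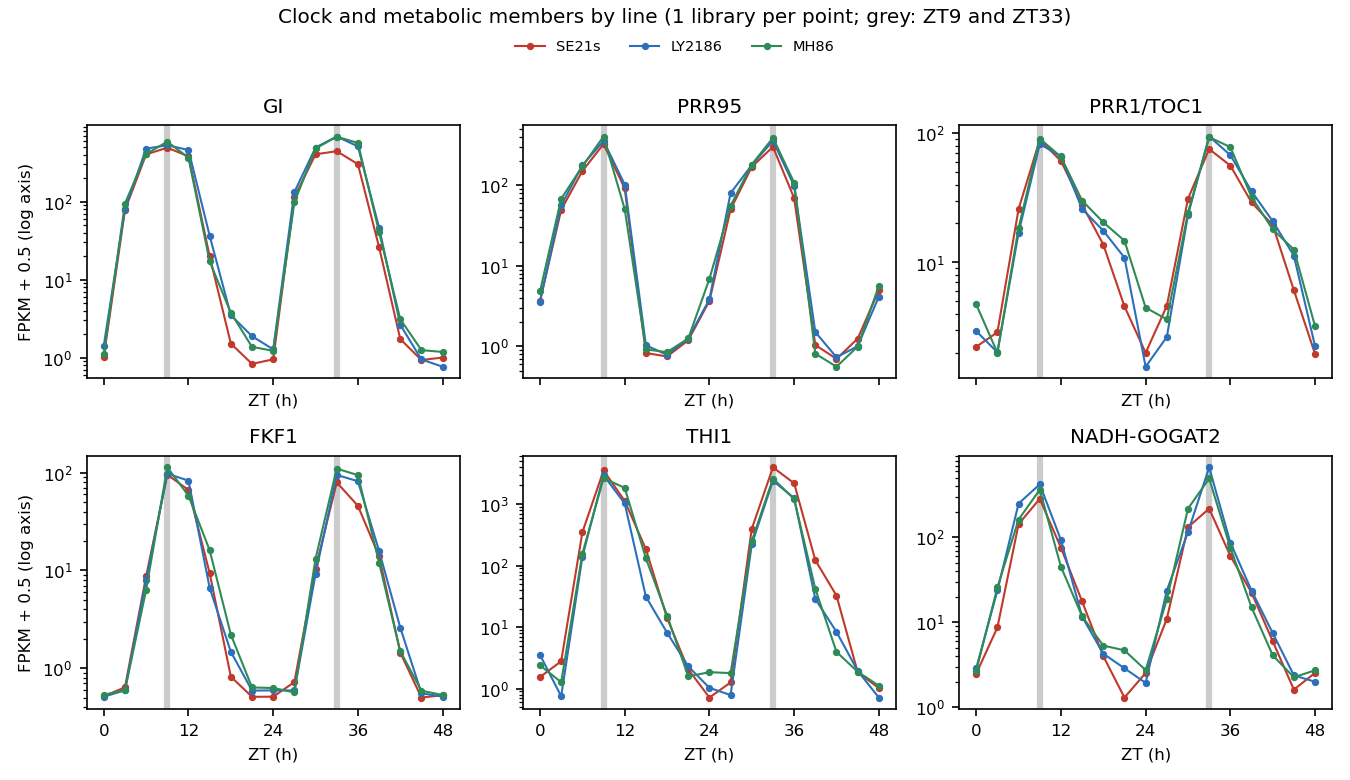
FPKM + 0.5 on a log axis against ZT (h) for GI, PRR95, PRR1/TOC1, FKF1, THI1 and NADH-GOGAT2, with 1 library per point, 1 coloured line per rice line and grey bars at ZT9 and ZT33. PRR1/TOC1 overlaps between the lines at the grey bars and is lowest in SE21s at ZT21 and ZT45 (4.08 and 5.59 FPKM), while NADH-GOGAT2 is lowest in SE21s at both bars (284 and 218 FPKM).

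THI1 (LOC_Os07g34570), which encodes the enzyme that makes the thiazole part of thiamine (vitamin B1), had the largest range of all members, 2276-fold. Its hour 9 values were 3507 and 3939 FPKM in SE21s, 2931 and 2391 in LY2186 and 2622 and 2586 in MH86. At hours 21 and 0 its 15 values lay between 0.216 and 3.03 FPKM. It rose from a mean of 251 FPKM at hour 6 to 2996 at hour 9, and both SE21s values lay above the other lines. The parental difference at hour 9 was 0.51 ± 0.53 and not called by limma (adjusted p = 0.528).

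NADH-GOGAT2 (LOC_Os05g48200), a glutamate synthase of nitrogen assimilation, had a narrow peak with means of 170, 408 and 72.4 FPKM at hours 6, 9 and 12. It read 284 and 218 FPKM in SE21s, 422 and 668 in LY2186 and 364 and 494 in MH86 at ZT9 and ZT33. SE21s lay below both other lines and these overlapped. By limma, neither SE21s minus MH86 (-0.77 ± 0.35, adjusted p = 0.134) nor LY2186 minus the parental mean (0.71 ± 0.31, adjusted p = 0.32) was called.

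CATA (LOC_Os02g02400), a catalase that breaks down hydrogen peroxide, stood at 1170.3 and 1254 FPKM in SE21s, 1680.3 and 2514 in LY2186 and 1803 and 1992 in MH86 at ZT9 and ZT33. SE21s was lowest at both. At hours 21 and 0 the order turned. SE21s held 87.3 to 116 FPKM there against 24.8 to 41.6 in MH86, with LY2186 between 36.5 and 166.

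The antenna members encode light-harvesting proteins, which bind chlorophyll and pass light energy to the photosystems. LHCA1 and LHCA4 belong to photosystem I, and LHCB4, LHCB6, CAB2R and the LHCB1-like gene to photosystem II. These genes form families of similar copies, so reads may be shared among them and the split between copies is uncertain. The other 7 antenna genes in the list were highest at hour 3 or hour 6. Apart from the LHCB1-like gene, the antenna members stayed high on the morning side of the peak, with LHCA4 (LOC_Os08g33820) at means of 6786, 10627 and 11491 FPKM at hours 3, 6 and 9 and 20.7 FPKM at hour 15. The LHCB1-like gene (LOC_Os01g52240) differed in shape, since its next highest hour was hour 0.

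At ZT9 and ZT33 LHCA4 read 16147 and 11279 FPKM in SE21s, 11693 and 8643 in LY2186 and 11220.4 and 9960.4 in MH86. The lines lay within 2-fold of each other at the peak. At ZT21, ZT45, ZT0, ZT24 and ZT48 the same gene read 358, 458, 1336, 941 and 1059 FPKM in SE21s. In LY2186 these libraries held 21.2, 12.8, 288, 284 and 117 FPKM, and in MH86 3.34, 1.62, 38.8, 23.0 and 17.6 FPKM. At each of these times SE21s was highest, LY2186 intermediate and MH86 lowest.

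LHCA1 (LOC_Os06g21590) read 3140.0 and 3069 FPKM in SE21s, 2646 and 1618 in LY2186 and 1994 and 1529 in MH86 at ZT9 and ZT33. At hours 21 and 0 it held 212 to 539 FPKM in SE21s, 14.9 to 120 in LY2186 and 1.34 to 12.3 in MH86. LHCB4 (LOC_Os07g37240) read 4800.4 and 4836 FPKM in SE21s, 4183 and 2156 in LY2186 and 2513 and 2303 in MH86 at the peak. For both genes SE21s lay above the other lines at the peak, and at hours 21 and 0 no line overlapped another for LHCA1. LHCB4 held 415 to 1206 FPKM in SE21s, 43.7 to 309 in LY2186 and 2.72 to 58.0 in MH86 at hours 21 and 0. LHCB6 (LOC_Os04g38410) went from 1495 and 1504 FPKM at ZT9 and ZT33 in SE21s, 1112 and 609 in LY2186 and 736 and 614 in MH86 to 317 to 1457, 26.7 to 369 and 3.24 to 44.7 FPKM at hours 21 and 0. In SE21s the highest of the values at hours 21 and 0, that at ZT0, lay close to the hour 9 values. In each line all values at hours 21 and 0 lay below both hour 9 values, by the least in SE21s. These hours were not the lowest of LHCB6 in SE21s, where its highest minus lowest clock-hour mean was 3.68 (log2).

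CAB2R (LOC_Os01g41710) read 7105 and 6099 FPKM in SE21s, 5933 and 2523 in LY2186 and 2343 and 2179 in MH86 at ZT9 and ZT33. At hours 21 and 0 it held 61.4 to 897 FPKM in SE21s, 2.80 to 79.8 in LY2186 and 1.47 to 20.2 in MH86. The LHCB1-like gene read 524 and 459 FPKM in SE21s, 258 and 72.2 in LY2186 and 14.7 and 17.1 in MH86 at the peak. It was the antenna member whose lines stood farthest apart at hour 9, and none of the 3 lines overlapped there. PORA (LOC_Os04g58200), a light-requiring reductase of chlorophyll synthesis, had the steepest fall after hour 9 of all members, 4.12 on the log2 scale. Its hour 9 libraries held 185 and 178 FPKM in SE21s, 126 and 67.5 in LY2186 and 59.4 and 50.3 in MH86, again without overlap.

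**Figure D3:**
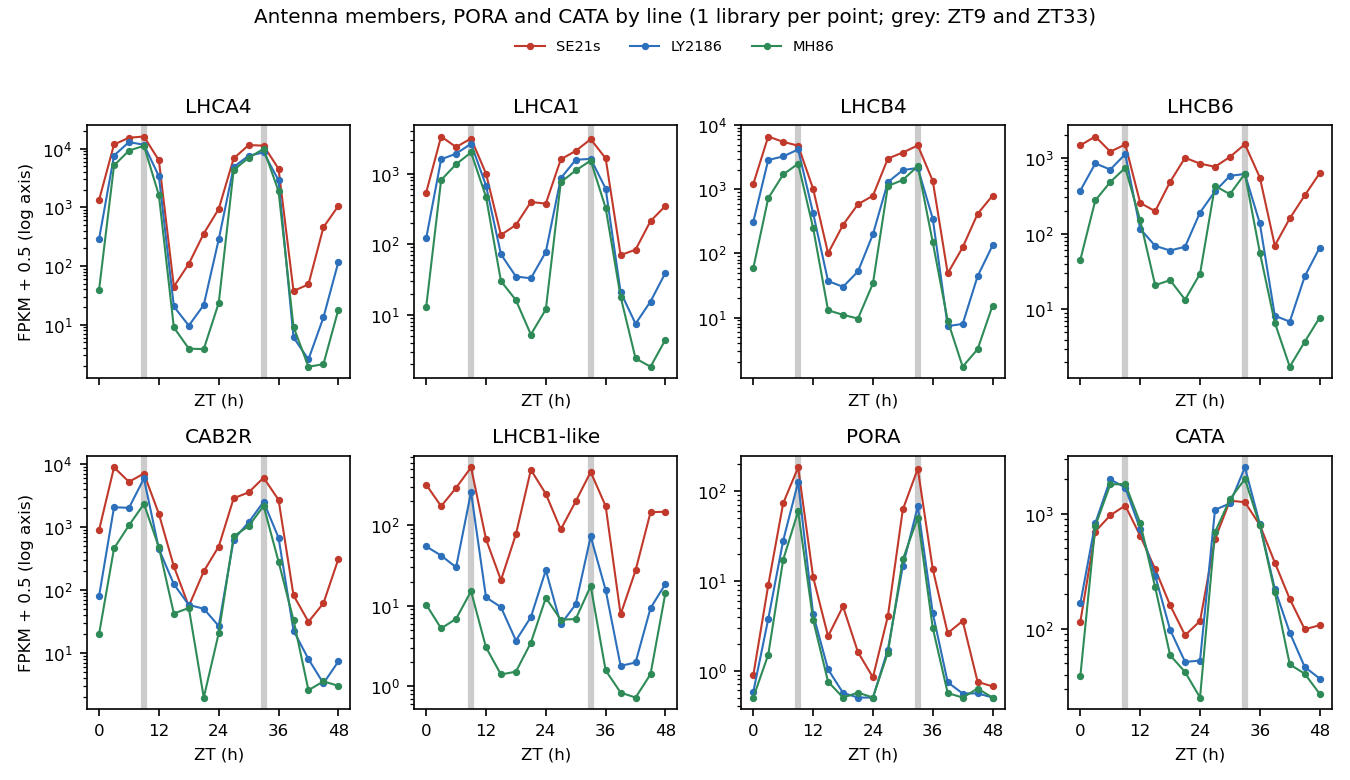
FPKM + 0.5 on a log axis against ZT (h) for the 6 antenna members, PORA and CATA, with 1 library per point, 1 coloured line per rice line and grey bars at ZT9 and ZT33. The lines of LHCA4 lie within 2-fold of each other at the grey bars and far apart at ZT21 and ZT45 (358 and 458 FPKM in SE21s, 3.34 and 1.62 in MH86), whereas those of PORA stand apart at the bars (185 and 178 FPKM in SE21s, 59.4 and 50.3 in MH86).

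The first comparison asked how the parents differ at the peak hour itself. By limma with Benjamini-Hochberg adjustment over 16842 genes, 8 members were higher in SE21s than in MH86 at hour 9, and 8.84% of all genes tested were. Another 10 members were lower in SE21s, against 10.7% of all genes. The members' shares, 5.33% and 6.67%, lie below those of all genes. Of the 131 members that met the conditions in each line, 5 were higher (3.82%) and 6 lower (4.58%). The median difference was -0.04 over the members and -0.09 over all genes (log2), and in 105 members the parents' hour 9 means lay within 1.5-fold of each other. Without the MH86 library at ZT9 or the SE21s library at ZT33 the count of higher members was 4, and without the MH86 library at ZT33 it was 5.

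Among the listed members, the LHCB1-like gene (4.91 ± 0.66, adjusted p = 7.7e-06) and PORA (1.72 ± 0.31, adjusted p = 0.00028) were higher in SE21s at hour 9 by limma. The other 12 were not called at that hour. The members outside the lists with the smallest adjusted p in each direction all missed the level condition in 1 or more lines, so their values are a description. LOC_Os04g14690 read 123 and 136 FPKM in SE21s, 28.5 and 12.2 in LY2186 and 5.63 and 5.92 in MH86. LOC_Os05g47540 read 376 and 535 FPKM in SE21s, 56.2 and 42.7 in LY2186 and 11.1 and 26.9 in MH86. Both genes stood in the order SE21s, LY2186, MH86 without overlap.

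In the other direction LOC_Os07g43570 was nearly silent in SE21s, with 0.0199 and 0.0819 FPKM at ZT9 and ZT33, against 165 and 160 in LY2186 and 365 and 351 in MH86. Its mean over all SE21s libraries was 0.0179 FPKM, so it is a member through LY2186 and MH86. The gene with the preceding identifier, LOC_Os07g43560, is also a member and met the conditions in each line, with hour 9 means of 82.9, 246 and 404 FPKM in SE21s, LY2186 and MH86 (-2.28 ± 0.28, limma adjusted p = 2.1e-06). Whether the counting could split reads between these neighbours was not tested. LOC_Os02g36450 read 14.1 and 15.9 FPKM in SE21s, 67.1 and 79.9 in LY2186 and 159 and 159 in MH86 without overlap.

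The parents were next compared for hour 9 minus the mean of hours 21 and 0, called range in the comparisons between lines. The level and range conditions of the choice used another range, the highest minus the lowest clock-hour mean. The 2 can differ, since the lowest mean fell at hour 3 in 31 members. The range was larger in SE21s than in MH86 in 30 members (20%), against 6.29% of all genes tested, and smaller in 10 members (6.67%), against 6.54%. Of the 131 members that met the conditions in each line, 27 had a larger (20.6%) and 8 a smaller range (6.11%). The median difference in range was 0.39 over the members and 0.007 over all genes (log2). The count of 30 depends on single peak libraries: it was 14 without the SE21s library at ZT9, 15 without the MH86 library at ZT33 and 16 without the MH86 library at ZT9. The 85 members with hour 12 above hour 6 held 24 of the larger and 3 of the smaller ranges, with a median difference of 0.66. The 65 with hour 6 above hour 12 held 6 and 7, with a median of 0.08. No share over all genes with the same flank is given, so this split is a description.

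The values at hours 21 and 0, called night here although the light schedule is not given, were compared in the same fit after the range results had been seen. At night 76 members (50.7%) were lower in SE21s than in MH86, against 37.1% of all genes tested, and 27 (18%) were higher, against 27.5%. Of the 131, 66 were lower (50.4%) and 24 higher (18.3%). The median night difference was -0.46 over the members and -0.11 over all genes (log2). Differences of at least 2-fold were called in 45 members that were lower and 17 that were higher, against 10.9% and 11.5% of all genes tested. Of the 30 members with a larger range in SE21s, 28 were called lower at night and 1 higher, while at hour 9 2 were called higher and 1 lower. Of the 10 with a smaller range, 7 were called higher at night and 1 lower, and at hour 9 1 was called higher and 3 lower. The range and the night difference share libraries, so these counts are not independent. Hour 9 also has fewer libraries per line than the night, so its SE is larger (for LHCA4 0.35 against 0.23). Over all genes 10.7% were called lower and 8.84% higher in SE21s at hour 9, against 37.1% and 27.5% at night. Counts called at night and at hour 9 therefore cannot be compared directly.

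PRR1/TOC1 was the listed member with a larger range from hour 9 to night in SE21s. Its highest minus lowest clock-hour mean differed little, at 5.31 in SE21s, 5.33 in LY2186 and 5.09 in MH86 (log2). Its night difference was -1.18 ± 0.13 (limma adjusted p = 8.2e-08) and its range difference 1.01 ± 0.24 (limma adjusted p = 0.0069). The range call was lost without the SE21s library at ZT9 (adjusted p = 0.115) and without the MH86 library at ZT9 (0.0601) or ZT33 (0.0513), by limma in each case. LOC_Os05g51420 showed the pattern at a higher level. It read 556 and 508 FPKM at ZT9 and ZT33 in SE21s, 580 and 701 in LY2186 and 614 and 572 in MH86. At hours 21 and 0 it held 37.6 to 111 FPKM in SE21s, 88.9 to 287 in LY2186 and 145 to 343 in MH86. The parents thus lay close at the peak and apart without overlap at night (range difference 1.83 ± 0.20, limma adjusted p = 2.2e-06; night difference -1.99 ± 0.11, limma adjusted p = 7.3e-13).

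LOC_Os04g14690 was the 1 member of the 30 counted as higher at night. It missed the level condition in LY2186 and MH86 and is a member through SE21s. Neither count is therefore a result for this gene, and no test is given for it. Its lines stood apart mainly at the peak, and it stayed at or below 0.842 FPKM at hours 21 and 0 in every line. LOC_Os09g04160 had one of the 2 smallest adjusted p values among members lower at night. It read 0.325 to 1.65 FPKM at hours 21 and 0 in SE21s, 3.34 to 30 in LY2186 and 8.46 to 34.8 in MH86, against 103 and 85.5, 127 and 140, and 140 and 153 FPKM at ZT9 and ZT33 in this order of lines. Its night difference was -3.68 ± 0.20 (limma adjusted p = 1.1e-12).

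The antenna genes went the other way: all 6 were higher in SE21s at night, and the LHCB1-like gene was the one called at hour 9. SE21s minus MH86 at night was 6.29 ± 0.23 for LHCA4, 6.05 ± 0.22 for LHCA1, 5.85 ± 0.35 for LHCB6, 5.67 ± 0.29 for LHCB4, 5.55 ± 0.42 for the LHCB1-like gene and 5.49 ± 0.55 for CAB2R, with limma adjusted p of 2.4e-08 or less. At hour 9 the differences were 0.35 ± 0.35, 0.83 ± 0.34, 1.16 ± 0.54, 1.0 ± 0.45, 4.91 ± 0.66 and 1.54 ± 0.85 in the same order. The range was smaller in SE21s for 5 of the 6. The range difference was -5.94 ± 0.42 for LHCA4 (limma adjusted p = 4.4e-09), -5.22 ± 0.41 for LHCA1 (2.8e-08), -4.69 ± 0.64 for LHCB6 (3.5e-05), -4.67 ± 0.54 for LHCB4 (4.7e-06) and -3.94 ± 1.01 for CAB2R (0.012). By highest minus lowest clock-hour mean these 5 were also smaller in SE21s than in MH86, but the parents lay closer. SE21s and MH86 had 8.36 and 11.9 for LHCA4, 5.0 and 9.13 for LHCA1, 3.68 and 6.69 for LHCB6, 6.10 and 9.11 for LHCB4, and 7.30 and 9.74 for CAB2R. The LHCB1-like gene, which was high in SE21s at both ends, was not called in range (-0.64 ± 0.78, limma adjusted p = 0.67). The CAB2R call was lost without the SE21s library at ZT9 (limma adjusted p = 0.103), the MH86 library at ZT9 (0.0519) or that at ZT33 (0.115), and without the time block (0.0988).

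CATA was likewise higher in SE21s at night (1.54 ± 0.21, limma adjusted p = 1.4e-06) and smaller in range (-2.19 ± 0.38, limma adjusted p = 0.0005), and it was not called at hour 9 (-0.65 ± 0.32, limma adjusted p = 0.165). PORA was higher in SE21s at night too (0.77 ± 0.20, limma adjusted p = 0.0021), though its values there were at most 1.10 FPKM. NADH-GOGAT2 was lower in SE21s at night (-0.64 ± 0.23, limma adjusted p = 0.019), and so was GI (-0.40 ± 0.18, limma adjusted p = 0.0499), whose call was lost with a constant of 1 FPKM (0.117), without the filter on low genes (0.0859), with median-ratio scaling (0.0657) or quantile scaling (0.166) and without the time block (0.0906). Outside the lists, LOC_Os05g33840 had a smaller range in SE21s (-3.41 ± 0.42, limma adjusted p = 1.1e-05). It read 227 and 191 FPKM at the peak and 147 to 242 at hours 21 and 0 in SE21s, but 101 and 105 against 2.75 to 21 in MH86. In SE21s its values at hour 9 and at hours 21 and 0 overlapped. It met the level and range conditions in each line on its own, but its highest hour in SE21s was hour 6. Its highest minus lowest clock-hour mean was 3.58 in SE21s and 5.36 in MH86.

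**Figure D4:**
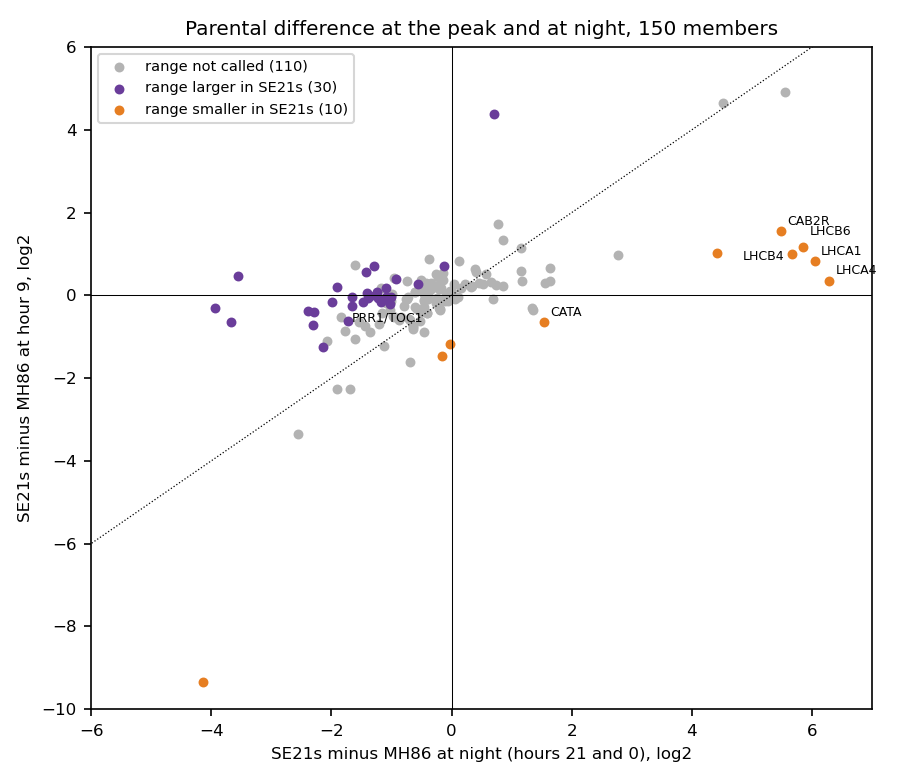
SE21s minus MH86 at hour 9 (vertical) against the same difference at night, the mean of hours 21 and 0 (horizontal), both in log2(FPKM + 0.5), for 150 members; the dotted line marks equal differences. Range is hour 9 minus night. Purple points, the 30 members with a larger range in SE21s, lie mostly left of 0 and near 0 vertically. The labelled antenna genes, among the 10 orange points with a smaller range, lie at 5.49 to 6.29 to the right.

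The timing of the flanks, hour 12 minus hour 6, gave few differences between the parents. By limma 1 member was called, with hour 12 lower relative to hour 6 in SE21s (0.0713% of all genes tested), and 0 were called in the other direction (0.148%), while 2 and 4 members had an unadjusted p under 0.05. The called member, LOC_Os01g50030, read 82.6 and 77.5 FPKM at hour 6 and 20.8 and 14.4 at hour 12 in SE21s, and 122 and 83.4 and then 55.5 and 85.5 in MH86 (-1.63 ± 0.34, limma adjusted p = 0.0422). Without the time block this call was lost (limma adjusted p = 0.183). For LY2186 against the parental mean limma called 0 members in either direction, against 0.0119% and 0% of all genes. At an unadjusted p under 0.05 there were 8 and 2. Here and below, counts at an unadjusted p have no share over all genes beside them and are a description.

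The hybrid was compared with its parents at the peak. At hour 9, 1 member was higher in LY2186 than the parental mean, against 2.43% of all genes tested, and 1 was lower, against 0.736%. Of the 131 members that met the conditions in each line, 0 were higher and 1 lower. Over all members the counts at an unadjusted p under 0.05 were 6 and 13. The median difference from the parental mean was -0.01 over the members and 0.02 over all genes (log2). The higher member was LOC_Os07g43570, nearly silent in SE21s, for which no test is given. It was also the 1 member called with a larger range in LY2186, against 0.0831% of all genes, and 0 of the 131 were. With a smaller range 0 members were called, against 0.154%, while 11 and 8 members had an unadjusted p under 0.05. In FPKM the LY2186 mean at hour 9, 163, lay between 0.0509 in SE21s and 358 in MH86, while the parental mean of the test is a mean of log2 values.

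The lower member was LOC_Os09g27030. It read 1498 and 1901 FPKM in SE21s, 1224 and 924 in LY2186 and 1869 and 1616 in MH86, with LY2186 below every parental library (-0.69 ± 0.18, limma adjusted p = 0.0347). It was also the 1 member called below both parents, against 0.148% of all genes, and 0 were called above both, against 0.172%, with 4 and 0 at an unadjusted p under 0.05. Both calls were lost without the LY2186, MH86 or SE21s library at ZT33, and without the LY2186 or MH86 library at ZT9, where limma adjusted p for the parental mean ran from 0.0574 to 1. With quantile scaling both were lost too (limma adjusted p = 0.175 for the parental mean), and the call below both parents was also lost without the filter on low genes and with median-ratio scaling.

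Set against single parents at hour 9, 5 members were higher in LY2186 than in SE21s and 4 lower, against 5.14% and 2.73% of all genes tested. Against MH86, 3 were higher and 3 lower, against 3.05% and 2.67%. Of the 131, 3 were higher and 1 lower than SE21s, and 1 was higher and 3 lower than MH86. The LHCB1-like gene was higher in LY2186 than in MH86 (3.07 ± 0.66, limma adjusted p = 0.0051). These contrasts share the LY2186 libraries.

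At night 9 members were higher in LY2186 than the parental mean, against 10.1% of all genes, and 17 were lower (11.3%), against 6.73%. Of the 131, 7 were higher (5.34%) and 16 lower (12.2%). Without the time block the lower count was 11. The hybrid's night mean in FPKM lay between those of the parents in 93 members (62%), against 63.8% of all genes tested, and its hour 9 mean in 69 (46%), against 53.4%. Of the listed members the LHCB1-like gene was called, with 6.73 to 54.2 FPKM in LY2186, 145 to 488 in SE21s and 0.913 to 14.1 in MH86 (-1.18 ± 0.37, limma adjusted p = 0.0305). That call was lost without the filter on low genes (0.0598) and without the time block (0.0975).

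Outside the lists, LOC_Os09g04160 (1.13 ± 0.18, limma adjusted p = 0.00012) and LOC_Os09g11480 (2.16 ± 0.36, limma adjusted p = 0.00024) were higher in LY2186 than the parental mean at night. LOC_Os09g11480 held 2.53 to 28.1 FPKM in LY2186 against 0.305 to 3.94 in SE21s and 0.855 to 3.65 in MH86. LOC_Os05g47850 (-0.83 ± 0.14, limma adjusted p = 0.00025) was lower. LOC_Os05g47850 held 0.708 to 10.9 FPKM in LY2186, 1.95 to 13.8 in SE21s and 2.96 to 18.8 in MH86.

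**Figure D5:**
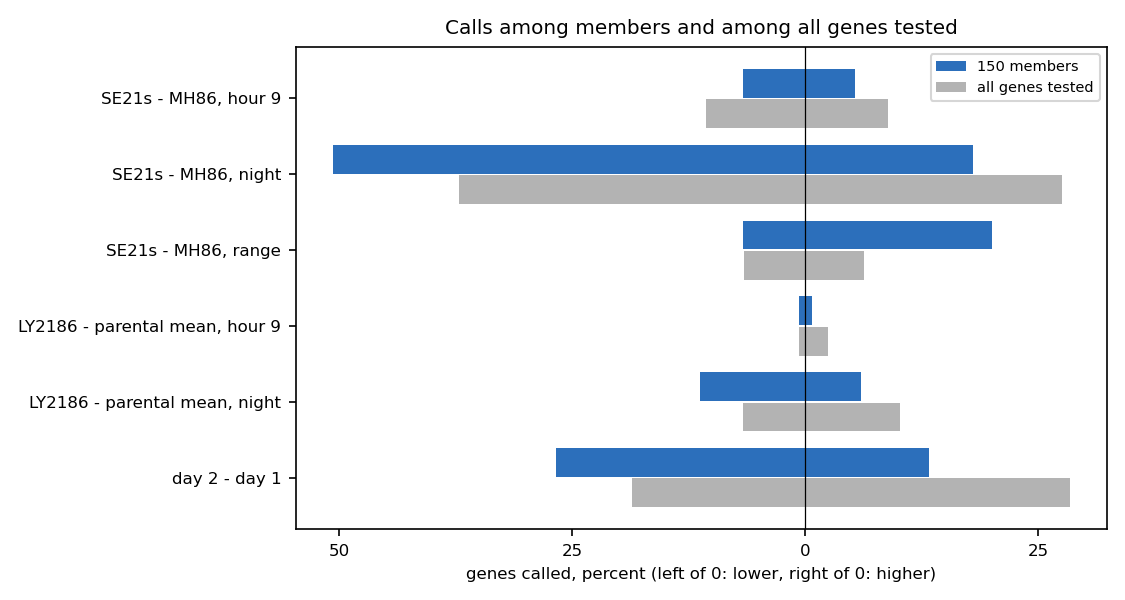
Percent of genes called by limma at an adjusted p of 0.05 among the 150 members (blue) and among all 16842 genes tested (grey), to the right of 0 for higher and to the left for lower, for 6 comparisons. The members exceed all genes in the larger range of SE21s (20% against 6.29%) and in lower night levels in SE21s (50.7% against 37.1%), and stay below them at hour 9.

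The second day was compared with the first over the 3 lines. With the time block, deviations that the 3 lines share at a sampling time do not enter the SE of this comparison. Only these days were sampled, so the p-values do not measure variation between days in general. At the peak, ZT33 minus ZT9, limma called 0 members in either direction, against 0.00594% higher and 0% lower among all genes, and 0 and 2 members had an unadjusted p under 0.05. The median difference at that hour was -0.11 over the members and 0.01 over all genes (log2). On the second day 106 members were lower there, and no share over all genes is given for this count. Over all 8 clock hours, 20 members were higher on the second day (13.3%), against 28.4% of all genes, and 40 were lower (26.7%), against 18.6%. With median-ratio scaling of the libraries the split was 13 higher and 50 lower. The median over all genes was then -0.017, against 0.037 without it. The shares of all genes called with this scaling are not given, so these 2 counts cannot be set against the shares above. Without this scaling the day differences were small: the median over the members was -0.09. Of the called members 2, CAB2R and LHCB6, were lower by at least 2-fold, against 0.0594% of all genes.

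The listed members called lower on the second day were the 6 antenna genes and PORA. The day difference, second minus first, was -1.08 ± 0.15 for LHCB6 (limma adjusted p = 9.4e-05), -1.02 ± 0.24 for CAB2R (0.0023), -0.79 ± 0.13 for LHCB4 (0.00018), -0.77 ± 0.19 for the LHCB1-like gene (0.0028), -0.76 ± 0.10 for LHCA1 (5.6e-05), -0.56 ± 0.10 for LHCA4 (0.00031) and -0.29 ± 0.09 for PORA (0.012). In LY2186 all 7 were lower at ZT33 than at ZT9, such as CAB2R with 5933 and then 2523 FPKM, whereas in SE21s LHCB4 and LHCB6 were slightly higher at ZT33. PRR1/TOC1 was called higher on the second day (0.14 ± 0.06, limma adjusted p = 0.046), a call lost without the filter (0.0858), with day terms in place of the time block (0.116) and with median-ratio (0.191) or quantile scaling (0.051).

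Outside the lists, LOC_Os04g40874 (0.35 ± 0.06, limma adjusted p = 0.00025) and LOC_Os07g42750 (0.53 ± 0.10, limma adjusted p = 0.00055) were higher on the second day. LOC_Os01g43090 (-0.38 ± 0.04, limma adjusted p = 1.4e-05) and LOC_Os06g24190 (-0.62 ± 0.10, limma adjusted p = 0.0002) were lower. For LOC_Os01g43090 the hour 9 libraries read 114 and 123 FPKM in SE21s, 100.2 and 80.6 in LY2186 and 96.1 and 85.7 in MH86, so its peak fell on the second day in 2 of the 3 lines.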

How the data were processed

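The 51 libraries (17 in each of 3 lines) were measured by strand-specific RNA sequencing. The authors deposited FPKM values per gene; TopHat2 and Cuffdiff are named in the submitters' processing notes, with the versions, build and annotation not given in the sources used here. Depth is unknown and no counting interval is given, since counts were not used. The reference gene table (assembly ASM3414082v1) matched 0 identifiers.

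Values on the log2(FPKM + 0.5) scale entered limma 3.58.1 (R 4.3.3) for the 16842 genes that averaged 1 FPKM or more, all members included (trend and robust options, two-sided, Benjamini-Hochberg at 0.05), which was tested on simulated data. The model held sampling time as a block (17 levels) and line by clock hour, leaving 18 residual degrees of freedom. The pairing comes from the sampling time in the labels. Day-to-day differences of 2 lines at the same hour correlated across genes with a median r of 0.19 (-0.36 to 0.58), above 0.1 in 18 of 24 pairs. The contrasts at night were added after the range results were seen, as were the day-term fit and the counts over the 131 members that met the level and range conditions in each line.

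Members and lists were chosen with earlier results of these data known. Named are all members in a list, the 2 with the largest range, per contrast and direction up to 2 further called members with the smallest adjusted p, and the genes at the limit of the choice; LOC_Os07g43560 was added after its values were seen. Values listed at 0 were kept; 160 occur in 24 members, of which 2, in 1 member, lay between times of at least 10 FPKM and were set missing as an alternative. Other alternatives were a constant of 1, no filter, median-ratio and quantile scaling, no replicate block, and leaving out each hour 9 library.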

Additional observations from a re-analysis of the deposited data

Results flagged for a closer look

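Members whose range or flank timing differed between lines by limma are given here with the size of that difference on the log2 scale. Range here is the peak hour minus night, as in the comparisons between lines above. The highest minus lowest clock-hour mean is a different measure and was not tested between lines. No explanation was tested. SE21s minus MH86 in range was -5.94 for LHCA4, -5.22 for LHCA1, -4.69 for LHCB6, -4.67 for LHCB4, -3.94 for CAB2R and -2.19 for CATA, all smaller in SE21s. It was 1.01 for PRR1/TOC1 and 1.83 for LOC_Os05g51420, both larger in SE21s. It was -3.41 for LOC_Os05g33840, whose highest hour in SE21s alone was hour 6. Hour 12 minus hour 6 differed by -1.63 for LOC_Os01g50030.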

How the results depend on the processing

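No called difference of a named member changed direction under the alternatives that were run. Several medians over all genes near 0 did, and some of them are given here. That of LY2186 minus the parental mean at hour 9 was -0.0053 with quantile scaling and -0.031 or -0.020 without LY2186 or SE21s at ZT33. That of SE21s minus MH86 in range was -0.068 or -0.010 without SE21s or MH86 at ZT9. That of ZT33 minus ZT9 was -0.0066 with median-ratio scaling and -0.019 without either LY2186 library. For the second day minus the first it was -0.017 with median-ratio scaling, against 0.037 in the main fit. For SE21s minus MH86 at night the sign held with median-ratio scaling, but the median was -0.015, against -0.11 in the main fit. Each value in the rest of this paragraph is a count of members called. For LY2186 below the parental mean at hour 9 (1), a constant of 1 and median-ratio scaling gave 2 each and quantile scaling 0. For LY2186 below both parents (1), a constant of 1 gave 2, and no filter, median-ratio and quantile scaling gave 0. For the second day higher (20), median-ratio scaling gave 13. With no replicate block the flank count lower in SE21s (1) was 0, LY2186 lower at night (17) was 11, and SE21s larger in range (30) was 20. With day terms in place of the block, 24 residual degrees of freedom, 15 members were higher and 35 lower on the second day (20 and 40 with the block) and 0 were called at ZT33 against ZT9; this fit was chosen after seeing the data. The cause of these changes was not tested.

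Leaving out each hour 9 library in turn gave 4 to 7 members higher and 7 to 10 lower in SE21s at hour 9, and 14 to 26 with a larger and 7 to 10 with a smaller range in SE21s. For LY2186 against the parental mean it gave 1 higher and 0 to 1 lower at hour 9, and 1 larger and 0 smaller in range. It gave 0 members above both parents, 0 to 1 below both, and 0 for ZT33 against ZT9. Results for named members were also compared by status, called or not called. Most of them were not called in the main fit, so an unchanged status often means that a result stayed uncalled. Of 164 results, 162 kept their status with a constant of 1, 161 without the filter and 162 with median-ratio scaling. With quantile scaling 161 did and with doubtful zeros missing 164. Without the block 128 of 132 kept their status, and with day terms 31 of 32. With a constant of 1, PORA passed in range (1.25, limma adjusted p = 0.0086). Depth is unknown, so differences near 0 FPKM cannot be judged for counting error.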
